A study of Rattus norvegicus with 22 samples.

Results

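The acute phase of traumatic brain injury (TBI) was described by comparing the ipsilateral hippocampus of 4 rats at day 1 after injury with that of 2 sham rats at the same time point. All were adult male Sprague-Dawley rats. TBI rats received a moderate lateral fluid percussion injury (LFP), a pulse of fluid against the exposed dura through an opening over the right hemisphere, and sham rats received the same anesthesia and craniectomy without the pulse. The shams therefore carried a skull opening and surgery of their own, only 1 day old. The series holds 14 RNA-seq samples, and the 8 of day 14 entered the model only to estimate the spread. The comparison covered 12875 of the 17172 genes in the count table, those with enough reads to be tested. Of the 6 samples compared, sham total counts were 19189470 and 23743703, and TBI totals ran from 17183319 to 23159858.

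The hours after a mechanical brain injury are known for a sequence of overlapping events. Damaged cells and blood products release danger signals, resident microglia and astrocytes answer with cytokines and chemokines, and neutrophils and then monocytes enter from the blood. Astrocytes change shape and protein content, a state called reactive, through signals that include the cytokine receptor gp130 and the transcription factor STAT3. Injured neurons switch on stress and regeneration genes and can lose transcripts for synapses and channels. The hippocampus, which lies under the impact site and serves learning and memory, is vulnerable to this type of injury.

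Changes were called at an adjusted p-value under 0.05 by edgeR's quasi-likelihood test with Benjamini-Hochberg adjustment over all tested genes. Fold changes are log2 ratios of TBI over sham, given with their standard error (SE), and levels are CPM, each gene's counts as a share of the library total after scaling by TMM factors. CPM is not corrected for gene length, so levels are compared between samples and not between genes. Sham replicate 1 held RNA of choroid plexus, the ventricular epithelium that secretes cerebrospinal fluid, at a level no other day 1 sample approached. Summed over the 27 choroid plexus markers in the count table, sham replicate 1 was at 12889 CPM and sham replicate 2 at 309 CPM. The TBI samples of day 1 were at 250 to 414 CPM. Of the day 14 samples used for the spread, TBI replicates 2 and 3 also scored high for choroid plexus, as given below. Meningeal fibroblast markers were also highest in sham replicate 1, at 1510 CPM, but here sham replicate 2 at 219.9 CPM lay below every TBI sample, at 433 to 802 CPM. Each comparison was therefore also fitted against each sham alone, with the lone sham assumed to vary like the other groups. Replicates of day 1 differed more than those of day 14, with a chi-squared per degree of freedom between pairs of 46.4 to 153 for TBI and 110 for the shams at day 1 and 11.6 to 46 at day 14. Below, a gene that rose or fell passed the threshold against the pair of shams, and a gene that rose or fell against each sham passed it in all 3 fits.

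Against both shams together, 1437 genes rose (11.2% of those tested) and 1021 fell (7.93%). Against sham replicate 1 alone 563 rose (4.37%) and 373 fell (2.9%), and against sham replicate 2 alone 1648 rose (12.8%) and 1286 fell (9.99%). In all 3 fits, 520 genes rose (4.04%) and 132 fell (1.03%). When the spread was estimated from the 6 day 1 samples alone, 551 rose and 97 fell against both shams, and 167 rose and 5 fell in all 3 fits. Rises and falls differed in how they stood against the individual shams. Of the 1437 rises, 520 (36.2%) passed in all 3 fits, 653 (45.4%) passed against sham replicate 2 but not sham replicate 1, 33 (2.3%) passed against sham replicate 1 only, and 231 (16.1%) passed against neither sham alone. Of the 1021 falls, 132 (12.9%) passed in all 3 fits, 607 (59.5%) against sham replicate 2 only, 138 (13.5%) against sham replicate 1 only, and 144 (14.1%) against neither. All 1437 rises had a positive fold change against each sham. Of the falls, 999 (97.8%) were negative against each, 4 turned positive against sham replicate 1, and 18 turned positive against sham replicate 2.

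Rises were also larger than falls. Among genes that rose against each sham, the median log2 fold change was 2.26, and 469 of 520 changed at least 2-fold, 299 at least 4-fold and 163 at least 8-fold. Among genes that fell against each sham the median was -1.02, and 72 of 132 changed at least 2-fold, 14 at least 4-fold and 3 at least 8-fold. In 1404 of the 1437 rises (97.7%) all 4 TBI samples lay above both shams, and in 875 of the 1021 falls (85.7%) all 4 lay below both. Over all tested genes, called or not, 2149 (16.7%) had every TBI sample above both shams and 1813 (14.1%) had every TBI sample below. The shams lay 93.0 apart in Euclidean distance over log2 CPM of all tested genes, and the TBI samples lay 64.1 to 100.4 apart. TBI replicates 2 to 4 lay 64.1 to 66.5 apart, and TBI replicate 1 lay 82.5 to 100.4 from them. The distance from a sham to a TBI sample was 103.2 to 144.4. TBI replicate 1 was the farthest from each sham, at 123.9 and 144.4.

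**Figure D1:**
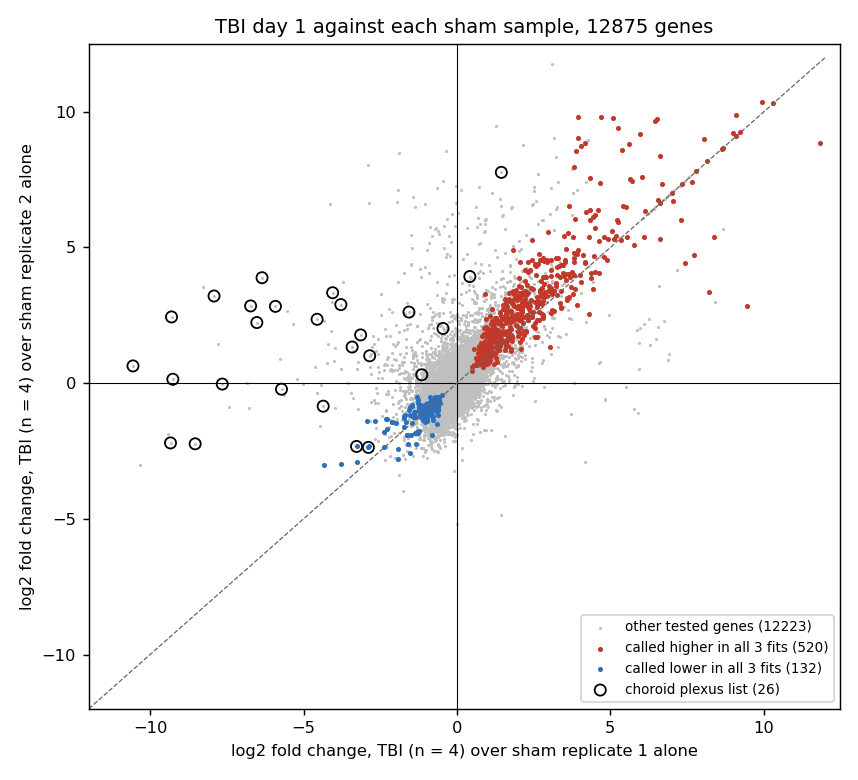
Each point is a tested gene, with its log2 fold change over sham replicate 1 alone on the x axis and over sham replicate 2 alone on the y axis; the dashed line marks equal values. The 520 genes that rose (red) and 132 that fell (blue) against each sham lie in the upper right and lower left, and most of the 26 choroid plexus markers (circles) lie far to the left, low against sham replicate 1 only.

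Among genes with a mean log2 CPM above 1, the 15 largest rises against each sham included Spp1, Serpina3n, the chemokine genes Ccl2 and Ccl7, Lcn2 and several myeloid receptors. Spp1 encodes osteopontin, a matrix protein and cytokine made by activated macrophages and microglia. Its level was 1.13 and 0.83 CPM in sham replicates 1 and 2 and 1222, 845, 1197 and 1175 CPM in TBI replicates 1 to 4. The log2 fold change was 10.14 ± 0.79 (SE; adjusted p = 3.2e-06), and it was 9.93 against sham replicate 1 and 10.37 against sham replicate 2. Serpina3n, a secreted serine protease inhibitor that marks reactive astrocytes, stood at 0.485 and 0.277 CPM in the shams and at 264, 382, 195 and 241 CPM in TBI. It rose by 9.47 ± 0.43 (adjusted p = 1.18e-08). For both genes every TBI sample lay far above both shams, and the fold changes against the individual shams differed by less than 1 on the log2 scale.

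Ccl2 and Ccl7 encode related chemokines that draw monocytes. Ccl2 was at 0.162 and 0.138 CPM in the shams, 3 counts in each, and at 44.1, 181, 75.2 and 43.2 CPM in TBI, a ratio of 603 with a 95% counting interval of 277 to 1640. Ccl7 had 0 and 1 counts in the shams and was at 5.29, 56.1, 13.5 and 21.3 CPM in TBI, a ratio of 1030 with an interval of 185 to 40700. TBI replicate 2 was the highest sample for both chemokines. Lcn2 encodes lipocalin 2, an iron-siderophore binding protein of reactive astrocytes and neutrophils. It was at 4.9 and 1.43 CPM in the shams and at 637, 310, 472 and 492 CPM in TBI, a rise of 7.25 ± 0.63 (adjusted p = 6.15e-06).

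The scavenger receptor gene Msr1 rose by 7.52 ± 0.78, from 0.269 and 0.323 CPM in the shams to between 40 and 81.3 CPM in TBI. Clec7a, the fungal glucan receptor dectin-1 of myeloid cells, rose by 6.65, Lilrb4, an inhibitory receptor of myeloid cells, by 8.49, and Lgals3, the lectin galectin-3, by 6.36. Slpi, an inhibitor of neutrophil elastase, rose by 6.47. Timp1, the metalloproteinase inhibitor, was at 4.96 and 1.34 CPM in the shams and at 224 to 288 CPM in TBI, a rise of 6.31 ± 0.48 (adjusted p = 2.46e-06). Socs3 is a target of STAT3 that dampens its signal, and it rose by 5.95 ± 0.59, from 0.647 and 0.323 CPM to 36.5, 44.8, 24 and 14.2 CPM. RGD1565374, named only by its identifier, rose by 6.86. Copies that resemble each other, as among the Lilrb and S100 families, may share reads in these counts.

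Ccdc103, a gene of cilia assembly, rose by 6.24 ± 0.83, from 0.377 and 0.323 CPM to 37.2, 51.8, 9.99 and 8.19 CPM in TBI. In the newer rat build GRCr8 it is separated from Gfap, the intermediate filament gene of reactive astrocytes, by 1 annotated gene, FAM187A. FAM187A and Gfap were looked up after these values were seen. FAM187A rose by 5.39 against both shams, from 0.485 and 0.784 CPM to between 14.4 and 45.3 CPM. Gfap was at 1558 and 952 CPM in the shams and at 12646, 6987, 13057 and 10268 CPM in TBI, a rise of 3.10 ± 0.32 (adjusted p = 2.02e-05). The order of the TBI samples differed, with replicate 2 highest for Ccdc103 and FAM187A and lowest for Gfap. Whether reads of 1 gene were counted to another was not tested, and the strand setting of the counting is not given in the sources used here.

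**Figure D2:**
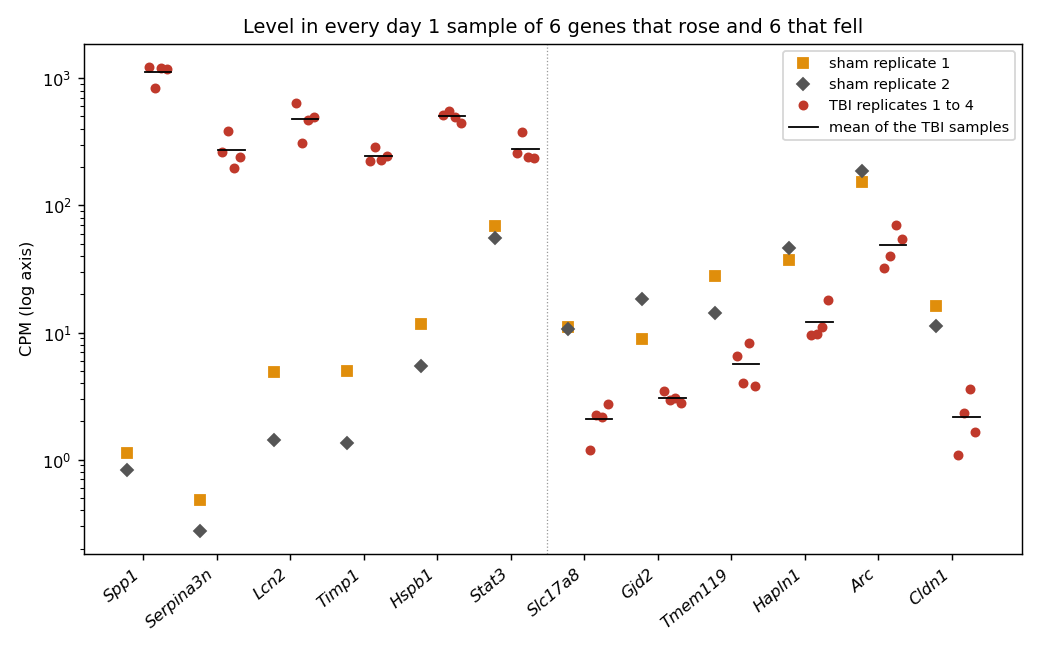
CPM on a log axis of 6 genes that rose (left of the dotted line) and 6 that fell (right) against each sham; squares and diamonds are sham replicates 1 and 2, circles the 4 TBI samples, and bars the TBI means. No TBI sample overlaps a sham in any of the 12 genes; Spp1 goes from 1.13 and 0.83 CPM in the shams to 845 to 1222 CPM in TBI.

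Short stretches before the start sites of the leading genes are shown because many acute-phase genes are known targets of STAT, AP-1, NF-kappaB and heat shock factors. Windows of 250 bases before to 50 after the start (RefSeq, GRCr8) were matched by symbol to 9194 of the 12875 tested genes. Of the 15 largest rises 9 had a single window, and 5 of those held at least 1 of 5 short motifs upstream of the start. The same share was not counted over all matched windows, so this count has no background beside it. The motifs were searched on both strands as TTCNNNGAA (STAT), TGANTCA (AP-1), GGANNTTCC (kappaB), TGACGTCA (CRE) and GAANNTTC (heat shock element, HSE). In 22 of the 9194 windows matches of different motifs shared a base. The stretches of these 5 genes and of Hspb1, the next rise with a match, read 5′ to 3′ on the strand of the gene, with the matches in capitals.
Ccl7, chr10:67514007-67514059, plus strand, AP-1 from 73 and kappaB from 59 bases before the start: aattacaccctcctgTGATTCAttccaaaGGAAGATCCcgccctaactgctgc
Serpina3n, chr6:129088216-129088292, plus strand, HSE from 161 and STAT from 123 bases before the start: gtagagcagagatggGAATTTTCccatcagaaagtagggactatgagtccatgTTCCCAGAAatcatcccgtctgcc
Lilrb4, chr1:78853333-78853370, minus strand, HSE from 103 bases before the start: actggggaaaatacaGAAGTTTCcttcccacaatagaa
Lcn2, chr3:36081999-36082030, minus strand, kappaB from 242 bases before the start: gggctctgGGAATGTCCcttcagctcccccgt
Ccdc103, chr10:88346245-88346283, plus strand, STAT from 193 bases before the start: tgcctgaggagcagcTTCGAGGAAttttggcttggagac
Hspb1, chr12:26432388-26432445, minus strand, HSE from 129 and from 109 bases before the start: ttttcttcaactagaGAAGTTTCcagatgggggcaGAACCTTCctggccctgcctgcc

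Over all 9194 matched genes the AP-1 motif was in 5.22% of windows, HSE in 5.84%, STAT in 6.54%, kappaB in 4.41% and CRE in 3.08%. Of the 372 matched genes that rose against each sham, 10.2% held AP-1, 9.14% HSE, 7.8% STAT, 5.65% kappaB and 2.15% CRE. Of the 91 matched genes that fell against each sham, 11% held STAT, 7.69% AP-1, 5.49% HSE, 2.2% kappaB and 0% CRE. These shares are a description of letters in the windows and were not tested.

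Lists of genes with a shared role were then counted. They are described by their called members and medians beside those of all tested genes, whose median log2 fold change was -0.02 against both shams, 0.00 against sham replicate 1 and 0.04 against sham replicate 2. Against both shams 11.2% of all tested genes rose and 7.93% fell, and more genes rose against sham replicate 2 (12.8%) than against sham replicate 1 (4.37%). Shares of list members are to be set beside these. When the spread came from the day 1 samples alone, most of the larger list counts shrank, as given below. RNA of bulk tissue cannot tell fewer cells of a type from less RNA per cell.

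Ligands and receptors of inflammation rose in number, but the summed level of chemokines did not rise. Over the 30 chemokines in the count table it was 1024.5 and 1098.7 CPM in the shams. In TBI replicates 1 to 4 it was 609.7, 1015.5, 994.2 and 878.4 CPM, each below both shams. Of 24 tested chemokines 13 (54.2%) rose and 2 fell, and 6 rose against each sham. Cxcl1, which draws neutrophils, was at 0.377 and 0.231 CPM in the shams and at 13.1, 19.4, 11 and 14.9 CPM in TBI, a rise of 5.58 ± 0.74 (adjusted p = 0.000156). Of 28 other cytokines 13 rose and 2 fell, and 9 rose against each sham. Il1b, the inflammasome product interleukin 1 beta, had 1 count in each sham and was at 4.2, 9.09, 6.78 and 2.78 CPM in TBI, a ratio of 118 with a 95% counting interval of 32.4 to 974. Clcf1, a ligand of the gp130 family, rose by 5.50, from 1.24 and 0.184 CPM to between 22.4 and 46.4 CPM. Of 45 cytokine receptors 27 rose and 1 fell, and 12 rose against each sham. Cd14, the lipopolysaccharide co-receptor, rose by 5.58 ± 0.46, with 1.02 and 0.599 CPM in the shams and 33.4 to 43 CPM in TBI. Il1r2 and Cxcr2, a decoy receptor for interleukin 1 and the CXC chemokine receptor of neutrophils, had at most 2 counts in a sham and 2.06 to 13.1 CPM in TBI.

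Genes of intracellular signalling were counted next. In the list of JAK-STAT3 genes and SOCS feedback, 10 of 26 (38.5%) rose, and 3 did so against each sham. Stat3 itself was at 68.9 and 55.7 CPM in the shams and at 260, 379, 241 and 234 CPM in TBI, a rise of 2.16 ± 0.21 (adjusted p = 1.21e-05). Bcl3, an IkappaB family member, rose by 4.92 ± 0.41, and Birc3, an inhibitor of apoptosis induced by NF-kappaB, by 2.76. Of 28 genes of the NF-kappaB pathway 15 rose, 8 of them against each sham. AP-1 genes, which encode dimers of the Fos, Jun, Maf and ATF families, rose in 8 of 13 cases and against each sham in 4. Among the AP-1 genes, Maff rose by 4.31, Atf3, a marker of injured neurons, by 4.29, and Fosl1 by 2.46. Atf3 was at 0.593 and 0.784 CPM in the shams and at 8.25, 22.2, 13.2 and 10.8 CPM in TBI. Taking the 6 lists of ligands, receptors and signalling as 161 different genes, 84 (52.2%) rose and 41 (25.5%) rose against each sham, beside 11.2% and 4.04% of all tested genes.

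Of 41 interferon response genes 20 (48.8%) rose against both shams, 8 against sham replicate 1 and 25 against sham replicate 2, and all tested genes likewise had more rises against sham replicate 2. Ifit1, an RNA sensor induced by interferon, had 0 counts in both shams and was at 1.87, 4.34, 3.48 and 0.94 CPM in TBI, at least 17.7-fold higher with the shams set at 3 counts per library. Ifitm3, which blocks virus entry, rose by 3.52 ± 0.39, from 7.49 and 2.44 CPM to between 45.2 and 65.3 CPM. Of 25 complement genes 13 (52%) rose, 7 against each sham. They included the receptors C5ar1 (3.82) and C3ar1 (2.70) and the C1 inhibitor gene Serping1 (3.18).

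In the MHC class II list of antigen presentation 7 of 11 genes (63.6%) rose, 5 against each sham, with a median of 2.20 against sham replicate 1 and 4.17 against sham replicate 2. RT1-Da, a class II chain, was at 8.08 and 2.4 CPM in the shams and at 32.8, 54.4, 57.7 and 57 CPM in TBI, and Ciita, the master regulator of class II, rose by 2.90. In the class I list 11 of 23 (47.8%) rose and 4 rose against each sham, among them the immunoproteasome subunits Psmb8 (2.55), Psmb9 (1.99) and Psmb10 (1.52). RT1 genes are closely related, so reads may be split between them.

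**Figure D3:**
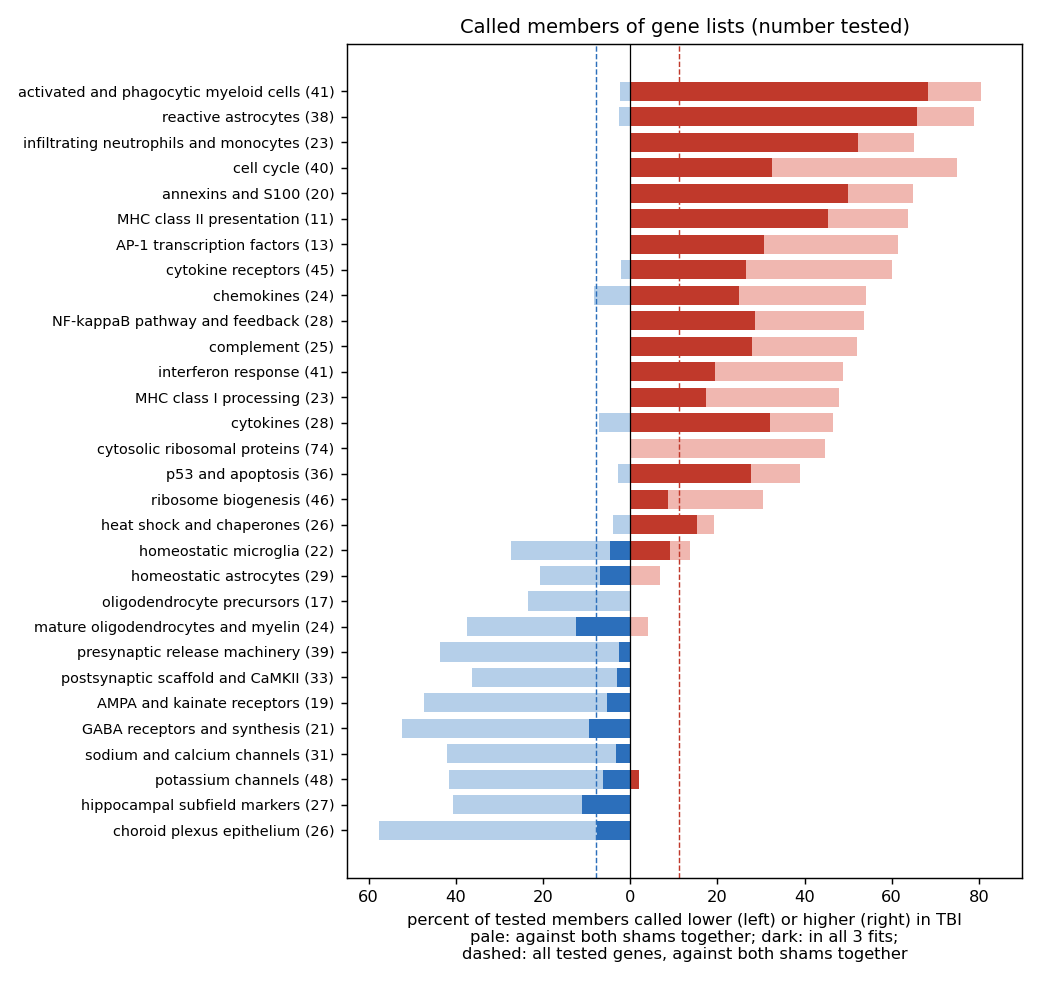
Percent of the tested members of 30 gene lists that were called higher (right) or lower (left) in TBI; pale bars are calls against both shams together, dark bars calls in all 3 fits, and dashed lines mark all tested genes (11.2% up, 7.93% down). Myeloid and reactive astrocyte lists keep most of their calls in all 3 fits, whereas cytosolic ribosomal proteins keep 0 and synapse, channel and choroid plexus lists keep few.

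Lists of cell type markers were counted in the same way, and many of their members are also made by other cells. Of 41 genes of activated and phagocytic myeloid cells 33 (80.5%) rose and 1 fell, and 28 rose against each sham, a median of 2.44. Of 22 homeostatic microglia genes 3 (13.6%) rose and 6 (27.3%) fell, and the balance turned with the sham, from 2 up and 5 down against sham replicate 1 (median -0.37) to 6 up and 2 down against sham replicate 2 (median 0.21). Tmem119, a microglial surface marker, was at 28 and 14.2 CPM in the shams and at 6.54, 4.02, 8.25 and 3.81 CPM in TBI, a fall of -1.90 ± 0.37 (adjusted p = 0.00299). In the same list P2ry6, a nucleotide receptor that triggers phagocytosis, rose by 1.95 ± 0.27 and Aif1, which encodes the microglial protein IBA1, by 1.33 ± 0.23, both against each sham. Sham replicate 1 was higher than sham replicate 2 in the summed homeostatic list, at 4537 against 2451 CPM, and the TBI samples lay between them at 2744 to 3427 CPM.

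Markers of infiltrating neutrophils and monocytes were low in both shams, at 394 and 275 CPM summed, and at 1816 to 2135 CPM in TBI. Of 23 tested members 15 (65.2%) rose, 12 of them against each sham. The calprotectin subunits S100a8 and S100a9, abundant in neutrophils, rose by 5.31 and 5.32. S100a9 was at 0.485 and 0.323 CPM in the shams and at 14.9, 22.8, 21.5 and 5.6 CPM in TBI. Granule genes made in the bone marrow were scarce. Mpo, Camp and Ngp had too few counts to be tested, with at most 10 counts in any day 1 sample. Elane, like these named after its values were seen, had 0 counts in both shams and 11, 10, 16 and 1 counts in TBI (adjusted p = 0.0662). Several members are shared with other cells, as Lcn2 and Fn1 are. In TBI, Lcn2 at 310 to 637 CPM and Fn1 at 381 to 634 CPM supplied a large part of the summed level.

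Reactive astrocyte genes rose in most cases. Of 38 tested, 30 (78.9%) rose and 1 fell, and 25 rose against each sham, with medians of 2.53 against sham replicate 1 and 3.75 against sham replicate 2. Summed, they stood at 2445 and 1683 CPM in the shams and at 17467, 11981, 17787 and 15050 CPM in TBI. Gfap supplied most of this sum, and without it the other 37 members stood at 887 and 731 CPM in the shams and at 4821, 4994, 4730 and 4781 CPM in TBI. Of 29 homeostatic astrocyte genes 2 (6.9%) rose and 6 (20.7%) fell, and here too the balance turned with the sham, from 0 up and 6 down against sham replicate 1 (median -0.69) to 3 up and 2 down against sham replicate 2 (median 0.11). The genes that fell against each sham were Slc6a11, the astrocytic GABA transporter GAT-3, at 47.2 and 37.1 CPM in the shams and 14.7 to 19 CPM in TBI (-1.35 ± 0.17, adjusted p = 7.97e-05), and the gap junction gene Gjb6, connexin 30 (-1.17 ± 0.24, adjusted p = 0.00361). Against sham replicate 2 alone, Gjb6 passed only narrowly, with an adjusted p of 0.0499.

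Vessels and matrix changed in part. Of 30 endothelial and barrier genes 9 (30%) rose, 3 of them against each sham, among them Angpt2, which loosens vessel walls (2.47), and Vwf, the platelet-binding factor of endothelium (1.88). Without sham replicate 1, 14 of the 30 rose, and without sham replicate 2, 3 did. Of 21 genes for leukocyte adhesion 11 (52.4%) rose and 3 fell, 8 rising against each sham, among them the hyaluronan receptor Cd44 at 16.2 and 20.9 CPM in the shams and 175 to 346 CPM in TBI (3.66 ± 0.405). Of 16 genes of pericytes and vascular smooth muscle 4 (25%) rose and 12 were not called, with a median of 0.05 against sham replicate 1 and 0.99 against sham replicate 2. The 3 that rose against each sham were Tagln (3.45) and Des (1.88) of contractile cells and the pericyte peptidase gene Anpep (3.27). Of 26 matrix proteases and inhibitors 9 (34.6%) rose and 2 fell, 8 rising against each sham. Mmp12, macrophage elastase, had 0 counts in both shams and was at 6.02, 10.2, 10.5 and 6.22 CPM in TBI, at least 55-fold higher. Fn1, fibronectin, rose by 2.59 ± 0.31, from 104 and 56.5 CPM to between 381 and 634 CPM.

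Stress responses were selective. Of 26 heat shock and chaperone genes 5 (19.2%) rose and 1 fell, 4 rising against each sham. Hspb1, the small heat shock protein HSP27 of reactive astrocytes and injured neurons, was at 11.7 and 5.44 CPM in the shams and at 511, 550, 494 and 448 CPM in TBI, a rise of 5.87 ± 0.39 (adjusted p = 6.23e-07). Hspb8 and its partner Bag3, which route damaged proteins to autophagy, rose by 1.71 and 1.30. Of 31 NRF2 and oxidative stress genes 10 (32.3%) rose and 1 fell, 3 rising against each sham: Hmox1, the heme-degrading enzyme, by 3.74 ± 0.35, and the metallothionein genes Mt2A and Mt1a by 4.23 and 2.84. Hmox1 was at 9.11 and 5.99 CPM in the shams and at 72.5, 162, 99.7 and 67.9 CPM in TBI. In the ER stress and ATF4 list 9 of 33 (27.3%) rose and 1 fell, the rises including Mthfd2 of mitochondrial folate metabolism (1.76) and Slc3a2, an amino acid transporter chain (1.08). Of 36 p53 and apoptosis genes 14 (38.9%) rose and 1 fell, 10 rising against each sham, among them the inflammatory caspase gene Casp4 (3.07) and the growth arrest gene Gadd45a (2.29).

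Cell cycle genes rose broadly but from low levels. Of 40 tested 30 (75%) rose, 13 of them against each sham. Mcm5, a subunit of the replicative helicase, was at 1.45 and 0.738 CPM in the shams and at 22.1, 10.2, 26.5 and 31.6 CPM in TBI, a rise of 4.37 ± 0.54 (adjusted p = 8.34e-05). Cdk1, the mitotic kinase, was at 0.593 and 0.415 CPM in the shams and at 6.02, 1.83, 12.2 and 7.65 CPM in TBI (3.77 ± 0.69). In both genes, and in Mcm3 (3.51), TBI replicate 2 was the lowest injured sample.

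Ribosomal genes showed how far a call can rest on the sham used. Of 74 cytosolic ribosomal protein genes 33 rose against both shams, 40 against sham replicate 2, 0 against sham replicate 1, and so 0 in all 3 fits by edgeR. At an unadjusted p under 0.05, 24 of the 74 were higher than in sham replicate 1. Against both shams limma-voom called 30 and DESeq2 38 of them higher. Over the 82 in the count table, their summed level was 4967 CPM in sham replicate 1 and 3486 CPM in sham replicate 2. In TBI it was 8091, 6093, 7531 and 6338 CPM, so every TBI sample was above both shams. The adjusted p of Rpl3 against sham replicate 1 was 0.0524, with a log2 fold change of 0.62, and that of Rplp0 was 0.0642, with 0.70. Ribosomal protein genes have many near-identical copies that may share reads. Of 46 ribosome biogenesis genes 14 (30.4%) rose, 4 against each sham, among them Fbl, the methyltransferase fibrillarin (0.98 ± 0.17).

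Falls that passed against each sham were fewer and smaller, and they held genes of neurons, astrocytes and oligodendrocytes. Slc17a8 encodes VGLUT3, a vesicular glutamate transporter of some interneurons and modulatory axons. It was at 11 and 10.6 CPM in the shams and at 1.19, 2.23, 2.15 and 2.73 CPM in TBI, a fall of -2.37 ± 0.32 (adjusted p = 0.000181). Gjd2, the neuronal gap junction protein connexin 36, was at 8.84 and 18.4 CPM in the shams and at 2.78 to 3.48 CPM in TBI (-2.15 ± 0.26, adjusted p = 7.97e-05). Plk5, a polo-like kinase of neurons and glia, fell by 2.18 on the log2 scale, from 23.5 and 33.2 CPM to between 5.55 and 7.84 CPM. Hapln1, a link protein of perineuronal nets, was at 37.4 and 46 CPM in the shams and at 9.55, 9.78, 11.1 and 18.1 CPM in TBI (-1.78 ± 0.22, adjusted p = 7.49e-05).

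Arc, an immediate early gene of synaptic plasticity, was at 153 and 187 CPM in the shams and at 32, 39.7, 69.9 and 54.7 CPM in TBI (-1.79 ± 0.31, adjusted p = 0.00124). Within the 31 neuronal activity genes that hold it, 7 rose and 6 fell. Cyr61, a secreted matrix protein also induced in astrocytes, rose by 4.22 and Gadd45g, a growth arrest and demethylation factor, by 2.22. Gdf10, a growth factor of the bone morphogenetic protein family, fell by 2.43 and Cyp26b1, which clears retinoic acid, by 1.86. Ddc, Btbd17, Sptssb and Tex15 also fell against each sham, with log2 fold changes of -1.81, -2.17, -1.95 and -2.01.

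Transcripts for synapses and channels fell mainly against sham replicate 2. With each gene counted once, the 249 genes of the 9 lists of receptors, channels, release machinery, scaffolds, interneurons and hippocampal subfields had 103 falls (41.4%, beside 7.93% of all tested genes) and 1 rise. Against sham replicate 1 alone 19 fell, against sham replicate 2 alone 130 fell, and 11 (4.42%, beside 1.03%) fell against each. Their median log2 fold change was -0.45 against sham replicate 1 and -0.85 against sham replicate 2, and in 110 of the 249 (44.2%, beside 14.1% of all tested genes) all 4 TBI samples lay below both shams. The direction was therefore shared by both shams, whereas the size and most of the calls depended on which was used.

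Among potassium channels 20 of 48 fell and 3 fell against each sham, including Kcnc1, a fast delayed rectifier of fast-spiking interneurons (-0.92 ± 0.16), and Kcnj9, a G protein-gated inward rectifier (-0.76 ± 0.13). The single rise was Kcnn4, the calcium-activated channel of microglia and lymphocytes, at 1.51 and 0.323 CPM in the shams and at 15.3 to 25.5 CPM in TBI (4.60 ± 0.53). Of 21 genes for GABA receptors and synthesis 11 fell. Gabrd, the extrasynaptic delta subunit, was at 24.6 and 34.7 CPM in the shams and at 8.97, 12.4, 10.2 and 8.1 CPM in TBI (-1.58 ± 0.23, adjusted p = 0.000338). Of 19 AMPA and kainate receptor genes 9 fell. Grik4, a kainate receptor subunit enriched in CA3, fell against each sham, from 114 and 141 CPM to 36.9, 61.1, 73.9 and 51.5 CPM (-1.19 ± 0.19, adjusted p = 0.000754).

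Large presynaptic scaffolds illustrate the dependence on the sham. Of 39 genes of the release machinery 17 fell, and 1, Slc17a8, fell against each sham. Bsn, bassoon, was at 525 and 901 CPM in the shams and at 248, 374, 394 and 439 CPM in TBI, so that all 4 TBI samples lay below both shams. Its log2 fold change was -0.53 against sham replicate 1 (adjusted p = 0.194) and -1.31 against sham replicate 2 (adjusted p = 0.00114). Ryr2, a ryanodine receptor gene from the list of sodium and calcium channels, was at 299 and 742 CPM in the shams. In TBI Ryr2 was at 164 to 241 CPM, with log2 fold changes of -0.60 against sham replicate 1 and -1.91 against sham replicate 2. Of 33 postsynaptic genes 12 fell, and Camkk2, a kinase upstream of CaMK and AMPK, fell against each sham (-1.21 ± 0.19), from 55.6 and 59.2 CPM to between 22.8 and 27.3 CPM.

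Hippocampal subfield markers were detected in every sample, at 2582 and 3103 CPM summed in the shams, and 11 of 27 fell. In TBI replicates 1 to 4 the sum was 1035, 1692, 2012 and 2384 CPM, lowest in replicate 1. Plk5 and Grik4, described above, are members that fell against each sham. Markers of dentate granule cells, named after their values were seen, fell against both shams together and against sham replicate 2 but did not pass against sham replicate 1 alone. Prox1, the transcription factor of granule cells, was at 29 and 111 CPM in the shams and at 8.04, 30.4, 11.7 and 38.1 CPM in TBI, so that TBI replicates 2 and 4 lay above sham replicate 1. C1ql2 and C1ql3, synaptic organizers of granule cells and their axons, were at 55.8 and 133 CPM and at 58.8 and 202 CPM in the shams, and TBI levels were 2.33 to 36.3 and 16.9 to 53 CPM. The share of each subfield in a dissected piece was not measured, and its part in these values was not tested.

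Myelin genes fell in part and varied within the injured group. Of 24 genes of mature oligodendrocytes 9 fell and 1 rose, 3 falling against each sham. Mal, a myelin raft protein, was at 366 and 315 CPM in the shams and at 172, 102, 127 and 59.6 CPM in TBI (-1.56 ± 0.31, adjusted p = 0.00335). Ermn, a cytoskeletal protein of myelin, fell by 1.59 and Tspan2 by 1.18. Summed over the list, TBI replicate 1 was at 19235 CPM, above both shams at 17850 and 13705 CPM, and TBI replicates 2 to 4 were at 6709, 11681 and 5820 CPM.

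Some neuronal genes rose against each sham. The neuropeptide gene Trh was at 1.67 and 1.38 CPM in the shams and at 22.6, 35.3, 6.01 and 57.6 CPM in TBI (4.31 ± 0.755, adjusted p = 0.00138), and Gal, which encodes galanin, rose by 2.55. In the same list of neuropeptides and granins 6 of 29 fell, 0 of them against each sham. Sprr1a, a gene of regenerating axons, had 3 and 0 counts in the shams and was at 4.67, 6.17, 3.21 and 8.95 CPM in TBI, a ratio of 78 with a 95% counting interval of 26.5 to 379. Ret, the receptor for ligands of the GDNF family, was at 13.3 and 13.7 CPM in the shams and at 75.8, 137, 67.4 and 61.9 CPM in TBI (2.66 ± 0.34, adjusted p = 0.000108), and Hbegf, a ligand of the EGF receptor, rose by 2.63.

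**Figure D4:**
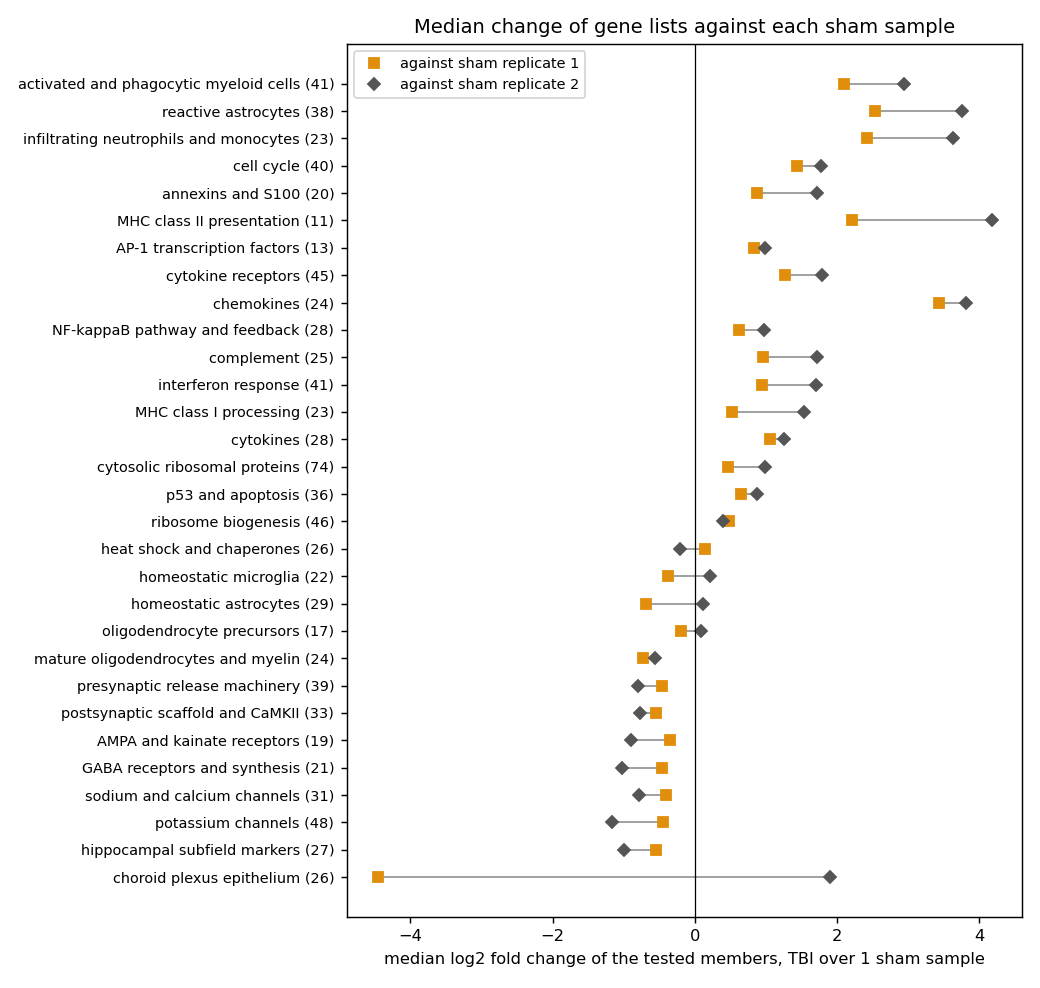
Median log2 fold change of the tested members of 30 gene lists in TBI over sham replicate 1 (squares) and over sham replicate 2 (diamonds). Immune and reactive glial lists lie to the right against both shams, synapse and channel lists lie further left against sham replicate 2, and the choroid plexus list goes from -4.46 against sham replicate 1 to 1.90 against sham replicate 2.

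Choroid plexus genes fell strongly against the pair of shams, and nearly all of those calls rested on sham replicate 1. Of 26 tested 15 fell against both shams together, 20 against sham replicate 1, and 2 against sham replicate 2, where 2 others rose. Ttr, the thyroxine carrier transthyretin, was at 7579 CPM in sham replicate 1, 3.23 CPM in sham replicate 2, and 4.31, 3.77, 8.07 and 3.94 CPM in TBI. Its log2 fold change was -9.56 ± 2.31 against both shams (adjusted p = 0.0104) and 0.64 against sham replicate 2 alone (adjusted p = 0.87), the opposite direction. Clic6, Folr1 and Mfrp did the same, with -6.92, -5.35 and -8.30 against both shams and 3.21, 3.89 and 2.44 against sham replicate 2, none of the latter past the threshold. Kl, the hormone klotho, was -6.65 against both shams and -0.03 against sham replicate 2 (adjusted p = 0.991). Enpp2, autotaxin, which oligodendrocytes also make, was at 2297 and 201 CPM in the shams and at 91.7 to 130 CPM in TBI, and against sham replicate 2 it was -0.85 (adjusted p = 0.357).

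The members that fell against each sham were Calml4 and Cldn1. Calml4, a calmodulin-like protein, was at 36.4 and 19 CPM in the shams and at 1.5, 4.38, 5.41 and 3.67 CPM in TBI (-2.88 ± 0.53, adjusted p = 0.00186). Cldn1, a tight junction protein, was at 16.1 and 11.2 CPM in the shams and at 1.09, 2.31, 3.58 and 1.66 CPM in TBI (-2.65 ± 0.46, adjusted p = 0.00121). In sham replicate 2 both lay above every TBI sample, whereas Ttr, Clic6, Folr1 and Mfrp lay below every TBI sample there. For Mfrp the gap was narrow, with 0.0922 CPM in sham replicate 2 and 0.104 CPM in TBI replicate 1.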

How the data were processed

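Polyadenylated RNA was sequenced as stranded single-end libraries. The authors aligned reads to rn5 with STAR 2.4.2a, after FastQC 0.11.8, and used featureCounts 1.5.0 with the UCSC gene set to make counts. The deposited count table holds raw counts, not normalized. Groups followed the labels, which give group, day and replicate number. Each sample was taken as 1 rat, and p-values measure the spread between these samples. For sham at day 14 the authors' methods give 2 rats and their results 4, and 4 samples carry that label. The 14 count columns were fitted in 4 groups with edgeR 4.0.16 in R 4.3.3: default filter by group, TMM factors, and a quasi-likelihood test of TBI day 1 against sham day 1, two-sided, with Benjamini-Hochberg adjustment over 12875 genes. The fit was repeated without each sham (13 samples). SE is the absolute log2 fold change over the square root of F. Total counts of day 1 samples were 17183319 to 23743703. A fold against shams at 0 used 3 counts per library as floor, and intervals (95%) and floors cover counting error only. An exact permutation test of 4 samples against 2 cannot go below p = 0.0667 and was not used for single genes.

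The members and lists were chosen with earlier results of these data known. The naming rule took the 15 largest rises and falls that were called in all 3 fits with no overlap of samples and a mean log2 CPM above 1, up to 3 genes for each of 53 lists, the 8 genes whose results differed most between the shams, and choroid plexus genes. It gave 172 genes, not all of which are described, and some are not reported here. Alternatives were limma-voom (limma 3.58.1), DESeq2 1.42.0, median-of-ratios factors, other count filters, only the 6 day 1 samples, the replicate number as a block, an adjusted p under 0.01, a choroid plexus score as covariate (the mean log2 CPM, prior count 2, of the choroid plexus list), and each sample left out. The tests were tested on simulated data. Figures were drawn with matplotlib. H3K4me3 peak files and day 14 comparisons were not used here. The table gives symbols without positions, so upstream sequences came from RefSeq by symbol in GRCr8, leaving out 3251 symbols with more than 1 window.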

Additional observations from a re-analysis of the deposited data

Results flagged for a closer look

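Among 122 genes described here, 10 had 1 TBI sample that stood apart from the other 3 by Dixon's test, which chance gives in about 1 of 20 groups. For 6 of the 10 that sample was TBI replicate 2. It was the lowest for Spp1 at 845 CPM, with the others at 1175 to 1222 CPM, for Tagln at 226 CPM, with the others at 363 to 399 CPM, and for Mcm3 at 13.8 CPM, with the others at 32.3 to 36.2 CPM. It was the highest for Gadd45g at 99.2 CPM, with the others at 52.9 to 55.8 CPM, for Slc3a2 at 449 CPM, with the others at 363 to 376 CPM, and for Steap4 at 19.3 CPM, with the others at 11.8 to 12.6 CPM. TBI replicate 1 was the lowest for RT1-Da at 32.8 CPM, with the others at 54.4 to 57.7 CPM, and for Mfrp at 0.104 CPM, with the others at 0.609 to 0.733 CPM. TBI replicate 3 was the highest for Lgals3 at 208 CPM, with the others at 141 to 150 CPM, and for Kcnc1 at 89.4 CPM, with the others at 65.2 to 68.4 CPM. All of these samples still lay on the same side of each sham as the rest of the group. Mfrp did so narrowly, at 0.104 CPM beside 0.0922 CPM in sham replicate 2.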

How the results depend on the processing

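With only the 6 samples of day 1, 551 genes rose and 97 fell, and 167 and 5 did so against each sham; rises were then 85% of calls in place of 58.5%. At an adjusted p under 0.01, 788 rose and 299 fell, and 239 and 26 did so against each sham, with rises at 72.5% of calls. With the choroid plexus score as covariate, 41 rose and 3 fell against each sham. DESeq2 called 206 falls against each sham and 778 rises, where edgeR called 132 and 520. Leaving out 1 sample gave 563 to 1673 rises and 373 to 1471 falls, the lowest without sham replicate 2 and the highest without TBI replicate 4, and 461 to 650 rises and 111 to 216 falls against each sham. Without TBI replicates 1 and 4 in turn these falls numbered 216 and 210. Without sham replicate 1, Ttr (0.64), Clic6 (3.21), Folr1 (3.89) and Mfrp (2.44) turned from lower to higher; without sham replicate 2 they were at -10.56, -7.92, -6.35 and -9.30. For these changes the cause was not tested. The median log2 fold change of all genes moved between -0.03 and 0.04 over the settings. Counts of called list members were also compared, for lists with at least 5 in a direction. With only the 6 day 1 samples, 31 of these counts shrank by more than 1.5 times and 15 stayed within 1.5 times. At an adjusted p under 0.01, 26 shrank by more than 1.5 times and 20 stayed within it. With the choroid plexus score as covariate, 1446 genes rose and 1006 fell against both shams together. The score was 4.30 in sham replicate 1, -1.58 in sham replicate 2 and -0.84 to -0.44 in TBI at day 1. With 1 sham, score and group can therefore hardly be told apart among the day 1 samples. At day 14 the score was 1.93 in TBI replicate 2 and 3.53 in TBI replicate 3, and -1.13 to -0.80 in the other samples. These samples entered the fit and the estimate of the spread, and their part in either was not tested. Other settings left the counts of rises and falls over all tested genes within 1.5 times. Replicate numbers are shared by only 2 pairs across the groups, whose deviations correlated at 0.127 and 0.073. Pairs with different numbers correlated at -0.191 to 0.191. With 2 shams, the deviations of 1 mirror those of the other. With the replicate number as a block, 1468 genes rose, 1281 of them also without it, and 1178 fell, 863 of them also without it, and 399 and 97 did so against each sham.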

Other observations

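Several groups are to be set beside the 11.2% of all tested genes that rose and the 7.93% that fell. Of 75 genes of the mitochondrial respiratory chain 2 (2.67%) rose and 3 (4%) fell, with a median log2 fold change of -0.04, and of 15 circadian clock genes 1 rose, the repressor gene Nfil3 (0.73 ± 0.17, adjusted p = 0.00994). Of 32 glycolysis and hypoxia genes 3 (9.38%) rose and 2 (6.25%) fell, and Pfkm, muscle-type phosphofructokinase, fell against each sham from 701 and 688 CPM to between 418 and 499 CPM (-0.61 ± 0.12, adjusted p = 0.00218). Of 29 genes for cholesterol synthesis and uptake 5 (17.2%) fell, 1 of them against each sham. Of 17 iron handling genes 6 (35.3%) rose and 1 fell, and the metalloreductase gene Steap4 was at 0.862 and 0.876 CPM in the shams and 12.6, 19.3, 11.8 and 11.8 CPM in TBI.

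Of 14 tested lymphocyte genes 4 rose, 1 of them, Cd8a, against each sham, from 0.216 and 0.138 CPM to 2.49, 2.15, 6.69 and 3.94 CPM (4.40 ± 0.74, adjusted p = 0.00103). Some myeloid cells also carry its product, and Cd8b, named after its values were seen, had 0 counts in both shams and 2, 24, 59 and 27 counts in TBI. Of the 520 genes that rose against each sham 187 (36%) were in any list, and of the 132 that fell 27 (20.5%) were.

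Bdh2, C1qtnf5, Pdlim2 and Sulf1 were the 4 genes called in opposite directions against the individual shams, and none was called against both together. Pdlim2 was at 12.1 and 0.876 CPM in the shams and at 2.08, 3.82, 4.03 and 3 CPM in TBI, with log2 fold changes of -1.90 and 1.88. Trem2, a lipid receptor of microglia, did not pass the test at day 1 (0.34 ± 0.33, adjusted p = 0.509), whereas Trem1, a receptor of neutrophils and monocytes, had 0 counts in both shams and 37 to 84 counts in TBI, at least 17.3-fold higher.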
